A study of Mus musculus with 8 samples.

Results

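The 8 core pluripotency genes *Pou5f1*, *Sox2*, *Sall4*, *Utf1*, *Dppa2*, *Dppa4*, *Zfp281* and *L1td1* were followed in RNA-seq of epiblast-like cells (EpiLCs), taken by their symbols from 54281 genes of the deposited tables, in which each symbol had a single row. RNA was measured in 8 lines with 1 library per line, 4 of genotype Tet1 KO, named KO1, KO9, KO15 and KO25, and 4 of genotype WT, which were WT7, WT17, WT12 and WT34. All 8 are male ESC lines from blastocysts of the B6129S6F1 cross that carries the *Tet1* tm1Koh allele, homozygous in the KO lines, and each line was derived separately. They had been adapted to 2iL medium on gelatin, then converted in N2B27 supplemented with bFGF (12 ng/ml) and KOSR (1%), without Activin A, with harvest at day 2. For a pair of WT libraries the title and the cell line label disagree (title WT12, label WT9, and title WT17, label WT12), and the titles are used here, since the genotype is WT by either. A suffix closes each column name of the tables, b1 for WT7, WT17, KO1 and KO9 and b2 for WT12, WT34, KO15 and KO25, and the sources used here do not say what it stands for. Each suffix holds 2 KO and 2 WT lines. Because every line has 1 suffix, a difference by suffix cannot be told apart from a difference between these sets of lines. The questions were how much RNA of each gene these lines held, how far the lines lay apart, and whether the level differed between KO and WT or between b2 and b1.

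OCT4 (*Pou5f1*), a POU domain factor, and SOX2, an HMG box factor, bind DNA side by side at enhancers of pluripotent cells and hold the network that keeps both the naive ESC and the later formative and primed epiblast states undifferentiated. SALL4 is a zinc finger factor that recruits the NuRD repressor complex and favours AT-rich DNA, UTF1 is a chromatin-bound protein of undifferentiated cells, and ZFP281 is a zinc finger factor that binds G-rich promoters and promotes the step from naive to primed pluripotency. DPPA2 and DPPA4 are SAP domain partners that bind as a heterodimer to CpG-rich promoters of developmental genes and to genes of the 2-cell-like state, and L1TD1 is an RNA-binding protein derived from the ORF1 protein of the LINE-1 retrotransposon. All are expressed in both ESCs and EpiLCs, in contrast to genes that mark one of these states.

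In the mouse genome (mm10, GENCODE M21), *Pou5f1* lies on chromosome 17 from 35506018 to 35510772, *Sox2* on chromosome 3 from 34650405 to 34652461, *Utf1* on chromosome 7 from 139943789 to 139945112, *Zfp281* on chromosome 1 from 136624901 to 136630053 and *L1td1* on chromosome 4 from 98726734 to 98738480, all on the plus strand. *Sall4* lies on the minus strand of chromosome 2 from 168748332 to 168767943. *Dppa4* (48283733 to 48294237) and *Dppa2* (48303908 to 48319723) are neighbours on the plus strand of chromosome 16, with 9670 bases between them. Promoters of *Zfp281* (chr1:136624651-136624950) and *L1td1* (chr4:98726504-98726803), both higher in b2 lines below, and of *Pou5f1* (chr17:35505782-35506081) and *Sox2* (chr3:34649745-34650044), which did not pass the test by suffix, are shown from RefSeq (GRCm38.p6, plus strand, 5′ to 3′, 250 bases before to 50 after the start site), so that the sequence of members that moved together can be read beside that of members that did not. For *Pou5f1* the more upstream of its RefSeq starts is shown. The RefSeq window of *Sox2* ends at 34650044, upstream of the GENCODE start at 34650405, which it does not include. Capitals mark matches on either strand to the octamer ATGCAAAT read by POU factors, the SOX core ACAAAG, the GC box GGGCGG, the G-rich stretch GGGGAGGG and the CCAAT box CCAAT.
Zfp281: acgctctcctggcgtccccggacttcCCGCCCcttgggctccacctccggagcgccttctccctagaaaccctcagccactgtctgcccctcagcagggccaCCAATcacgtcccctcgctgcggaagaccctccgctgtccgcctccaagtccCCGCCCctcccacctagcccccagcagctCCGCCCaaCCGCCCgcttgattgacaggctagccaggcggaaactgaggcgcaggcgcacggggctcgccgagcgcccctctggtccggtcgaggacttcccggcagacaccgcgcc
L1td1: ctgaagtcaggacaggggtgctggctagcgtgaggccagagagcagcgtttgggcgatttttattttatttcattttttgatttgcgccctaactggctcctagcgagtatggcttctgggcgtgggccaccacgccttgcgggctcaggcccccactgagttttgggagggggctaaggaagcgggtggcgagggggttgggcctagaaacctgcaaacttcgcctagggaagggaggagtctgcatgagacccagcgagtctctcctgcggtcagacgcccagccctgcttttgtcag
Pou5f1: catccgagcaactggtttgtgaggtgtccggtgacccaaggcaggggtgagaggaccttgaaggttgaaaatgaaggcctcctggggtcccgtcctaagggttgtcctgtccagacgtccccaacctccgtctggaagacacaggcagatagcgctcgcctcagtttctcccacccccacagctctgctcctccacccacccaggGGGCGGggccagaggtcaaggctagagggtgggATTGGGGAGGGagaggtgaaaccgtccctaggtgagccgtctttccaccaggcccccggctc
Sox2: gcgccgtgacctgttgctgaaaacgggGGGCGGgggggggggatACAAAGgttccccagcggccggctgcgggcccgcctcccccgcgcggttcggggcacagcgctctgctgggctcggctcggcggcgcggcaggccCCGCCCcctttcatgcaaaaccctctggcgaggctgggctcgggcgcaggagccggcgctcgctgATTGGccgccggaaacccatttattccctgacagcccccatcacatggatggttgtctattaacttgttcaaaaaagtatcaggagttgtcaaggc

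The *Zfp281* promoter had 4 GC boxes, 1 CCAAT box, 27 CG pairs and 70.7% GC, whereas that of *L1td1*, 58.7% GC with 14 CG pairs, held none of the 5 motifs. The *Pou5f1* promoter (62.7% GC, 11 CG pairs) had 1 GC box and 1 G-rich stretch that overlaps its 1 CCAAT box, which is on the other strand. The *Sox2* promoter (66.3% GC, 27 CG pairs) had 2 GC boxes, 1 SOX core and 1 CCAAT box. The *Utf1* promoter, 62.0% GC with 17 CG pairs, had 4 GC boxes and no other match. Of 32851 RefSeq promoters of the same length, 35.7% hold a GC box, 37.4% a CCAAT box, 18.7% a SOX core, 10.8% the G-rich stretch and 1.74% the octamer, and the median promoter has 52.7% GC and 7 CG pairs. The octamer was in none of the windows shown. *Sall4* and *Dppa2*, also higher in b2, and *Dppa4* had no entry among these promoters. Of the members higher in b2, only *Zfp281* and *L1td1* could thus be compared. They shared no motif of these 5, since *L1td1* held none.

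The deposited counts summed to between 13916576 and 23680839 per line (18430028 to 20917851 in b1 and 13916576 to 23680839 in b2). *Tet1* itself was lower in KO lines by a log2 difference of −3.97 (SE 0.17, adjusted p = 2.09e-05, edgeR's quasi-likelihood test). In TPM (a relative level corrected for transcript length) it had 21.6 to 32.0 in KO and 60.5 to 91.5 in WT lines, without overlap, and the ratio of the means was 0.330, a smaller difference than on counts. Cell state was checked by summed TPM of marker lists. Formative and primed markers summed to 615 to 983 TPM per line and naive markers to 47.0 to 79.3 TPM, while primitive streak markers summed to 0.389 to 1.94 TPM. Most of the formative and primed sum in each line was *Dnmt3a* (241 to 421 TPM) and *Dnmt3b* (218 to 270 TPM). Formative and primed markers, whose 11 genes all averaged at least 1 TPM, did not overlap between the suffixes (615 to 739 TPM in b1, 851 to 983 TPM in b2). Markers of feeder fibroblasts, on which ESC lines may be grown, did not overlap either, at 20.3 to 30.9 TPM in b1 and 5.82 to 17.8 TPM in b2. Only 2 of these 10 genes averaged 1 TPM or more, and *Postn* and *S100a4* were at 0 in every line. Most of the sum in each line was *Thy1*, at 18.0 to 28.3 TPM in b1 and 3.63 to 15.9 TPM in b2. The median log2 difference of b2 minus b1 over the 6 genes tested was −0.04 (edgeR), and 2 of 6 were above 0. The part of feeder cells in the differences below was not tested. In bulk RNA, fewer cells that express a gene and less RNA per cell cannot be told apart.

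All 8 genes were detected in every line, in an order that was partly fixed. *Pou5f1* ranked first in 8 of 8 lines at 457 ± 30.7 TPM (mean ± SD, n = 8 lines) and was rank 276 of the 35103 genes with a TPM above 0, and its range did not overlap that of *Utf1*, next at 160 ± 16.6 TPM. *L1td1* followed at 108 ± 43.4 TPM. *Utf1* was above it in only 5 of 8 lines and below it in KO15, WT12 and WT34, all of suffix b2. In b1 lines the ranges of these neighbours did not overlap (152 to 178 TPM for *Utf1*, 53.0 to 88.6 TPM for *L1td1*). *Sall4* held place 4 in 8 of 8 lines at 77.9 ± 27.5 TPM, and its range did not overlap that of *Dppa4* at 41.9 ± 5.00 TPM. *Dppa4* was above *Sox2* (33.2 ± 8.0 TPM) in 6 of 8 lines. *Dppa2* at 17.3 ± 5.29 TPM and *Zfp281* at 16.99 ± 4.52 TPM exchanged places, with *Dppa2* higher in 4 of 8 lines, and were rank 4611 and 4678. The coefficient of variation over the 8 lines ran from 6.73% for *Pou5f1* to 40.0% for *L1td1*. *Pou5f1* made up 44.4% to 57.0% of the summed TPM of the 8 genes. That sum was 824 to 856 TPM in b1 lines and 969 to 1010 TPM in b2 lines, without overlap.

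**Figure D1:**
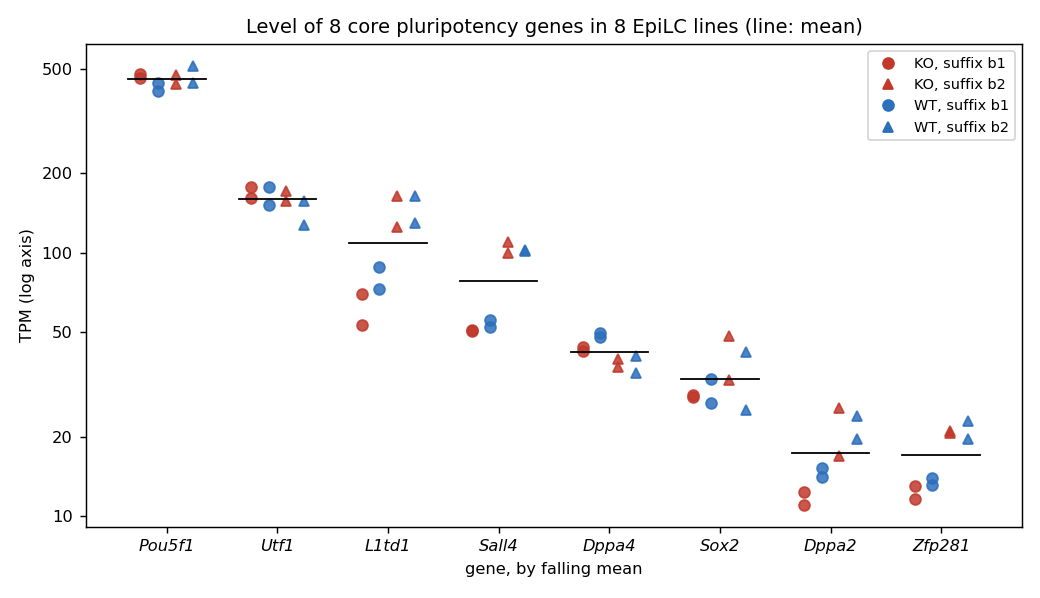
TPM of the 8 genes (log axis) in the 8 EpiLC lines, with KO in red, WT in blue, circles for suffix b1, triangles for suffix b2 and a bar at the mean over lines. KO and WT points overlap for all 8 genes, whereas triangles lie above circles for *L1td1*, *Sall4*, *Dppa2* and *Zfp281* and below them for *Dppa4*.

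None of the 8 genes differed between KO and WT lines by more than the spread between lines. *Pou5f1* had 461, 477, 473 and 436 TPM in KO1, KO9, KO15 and KO25 against 412, 512, 442 and 442 TPM in WT7, WT12, WT17 and WT34, respectively. *Sox2* had 28.9, 28.3, 32.9 and 48.2 TPM in the same KO lines against 33.1, 25.2, 26.9 and 42.0 TPM in the WT lines. For both DNA-binding partners the groups overlapped, with the highest *Sox2* in KO25 and WT34. These lines also had the lowest count totals of the 8 (13916576 and 14771499), and the part of depth in *Sox2* was not tested. The log2 difference of KO minus WT was 0.06 for *Pou5f1* (SE 0.08, 95% interval −0.11 to 0.22) and 0.13 for *Sox2* (SE 0.21, −0.34 to 0.60) in edgeR. *Utf1*, with 178, 162, 157 and 172 TPM in KO lines and 178, 127, 152 and 158 TPM in WT lines, overlapped too and had a log2 difference of 0.16 (SE 0.12, −0.12 to 0.43).

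The other members split by suffix inside each genotype, and the intervals of *Sall4*, *Zfp281* and *L1td1* were wider for it than with the suffix as a block (below). The log2 difference of KO minus WT was 0.08 for *Sall4* (SE 0.28, 95% interval −0.55 to 0.72), −0.13 for *Dppa2* (SE 0.28, −0.76 to 0.50) and −0.05 for *Dppa4* (SE 0.12, −0.31 to 0.20). It was −0.06 for *Zfp281* (SE 0.24, −0.61 to 0.48) and −0.07 for *L1td1* (SE 0.37, −0.90 to 0.77). Adjusted p was 0.998 for every member in edgeR, 0 of 8 were called by edgeR, DESeq2 or limma, and 0 of 8 had an unadjusted p under 0.05 in edgeR, where 970 of 17272 genes (5.62%) did. The background was low as well, since 7 of 17272 genes (0.0405%) were called, and 4.19% of all genes had CPM (counts relative to the scaled library size) that did not overlap between KO and WT, against 0 of 8 members. The median absolute log2 difference was 0.08 over the members and 0.13 over all genes. With the column suffix as a block the standard errors fell to 0.05 for *Sall4*, 0.08 for *Zfp281* and 0.14 for *L1td1*, and the intervals narrowed to −0.05 to 0.19, −0.24 to 0.10 and −0.45 to 0.18. Adjusted p then lay between 0.503 (*Utf1*) and 0.851 (*Sox2*) in edgeR and again 0 of 8 were called. A p that misses the threshold does not show equal levels, and these intervals bound the difference. With 1 library per line, the p-values measure the spread between lines, cultures and libraries together.

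By suffix, 4 of the 8 genes were higher in b2, *Sall4*, *L1td1*, *Dppa2* and *Zfp281*, and 1, *Dppa4*, was lower (edgeR, adjusted p under 0.05, genotype in the model). Over all 17272 genes 24.6% were called, 13.7% as higher and 11.0% as lower. Without KO9 or without WT7 the number of all genes called was 2667 or 2755 in place of 4253. The median log2 difference of b2 minus b1 was 0.50 over the members and 0.01 over all genes, and the median absolute difference was 0.50 against 0.26. CPM did not overlap between the suffixes in 5 of 8 members and in 26.3% of all genes. 6 of 8 members had an unadjusted p under 0.05, as did 37.8% of all genes.

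*Sall4* gave the smallest p of the 8. It had 50.7, 50.6, 52.1 and 55.7 TPM in KO1, KO9, WT7 and WT17, and 99.4, 110, 102 and 103 TPM in KO15, KO25, WT12 and WT34. The b2 lines lay far above all b1 lines, and within a suffix the genotypes differed little. On counts the difference was 1.81-fold (95% interval 1.66 to 1.97, log2 0.86, SE 0.05, adjusted p = 3.47e-05, edgeR), while the means of TPM, which also depend on the transcript lengths assigned in each library, stood in a ratio of 1.98. *Zfp281* had 13.0, 11.6, 13.1 and 13.95 TPM in the same b1 lines and 20.6, 21.1, 19.7 and 23.0 TPM in the b2 lines, a 1.63-fold difference on counts without overlap (95% interval 1.45 to 1.83, log2 0.70, SE 0.08, adjusted p = 3.44e-04, edgeR).

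*L1td1*, the LINE-1-derived RNA-binding protein gene, had the largest difference of the 8. It had 69.7, 53.0, 73.0 and 88.6 TPM in KO1, KO9, WT7 and WT17 and 165, 125, 129 and 164 TPM in KO15, KO25, WT12 and WT34. No b1 line reached the lowest b2 line, though lines within a suffix lay further apart than for *Sall4*. The difference was 2.10-fold (95% interval 1.68 to 2.61, log2 1.07, SE 0.14, adjusted p = 0.00101, edgeR), which placed its size at percentile 93.8 of all genes tested.

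The heterodimer partners *Dppa2* and *Dppa4* differed in opposite directions. *Dppa2* had 12.4, 11.03, 15.2 and 14.03 TPM in KO1, KO9, WT7 and WT17 and 25.6, 16.9, 19.6 and 23.9 TPM in KO15, KO25, WT12 and WT34, 1.66-fold higher in b2 (95% interval 1.33 to 2.08, log2 0.73, SE 0.14, adjusted p = 0.00650, edgeR). *Dppa4* had 42.2, 44.0, 47.7 and 49.4 TPM in the b1 lines and 36.7, 39.4, 35.1 and 40.6 TPM in the b2 lines. Neither gene overlapped between the suffixes, but the lower level of *Dppa4* was a small one, 1.19-fold (95% interval 1.06 to 1.34, log2 −0.25, SE 0.07, adjusted p = 0.0372, edgeR). That call was lost without KO1 (adjusted p = 0.0604, edgeR), KO9 (0.0859), KO15 (0.0779), WT7 (0.112) or WT17 (0.0720), with log2 differences of −0.28, −0.26, −0.25, −0.23 and −0.27. It was also lost with limma on log2(TPM + 1) (adjusted p = 0.0670) and log2(TPM + 0.1) (adjusted p = 0.0668). As a ratio of TPM, *Dppa2* to *Dppa4* was 0.287 ± 0.0287 in b1 lines (SD, n = 4, 0.251 to 0.320) and 0.568 ± 0.110 in b2 lines (SD, n = 4, 0.429 to 0.697). Since every b2 line had more *Dppa2* and less *Dppa4* than any b1 line, this ratio had to separate the suffixes and adds no further result. Between KO (0.251 to 0.697) and WT (0.284 to 0.588) it overlapped.

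**Figure D2:**
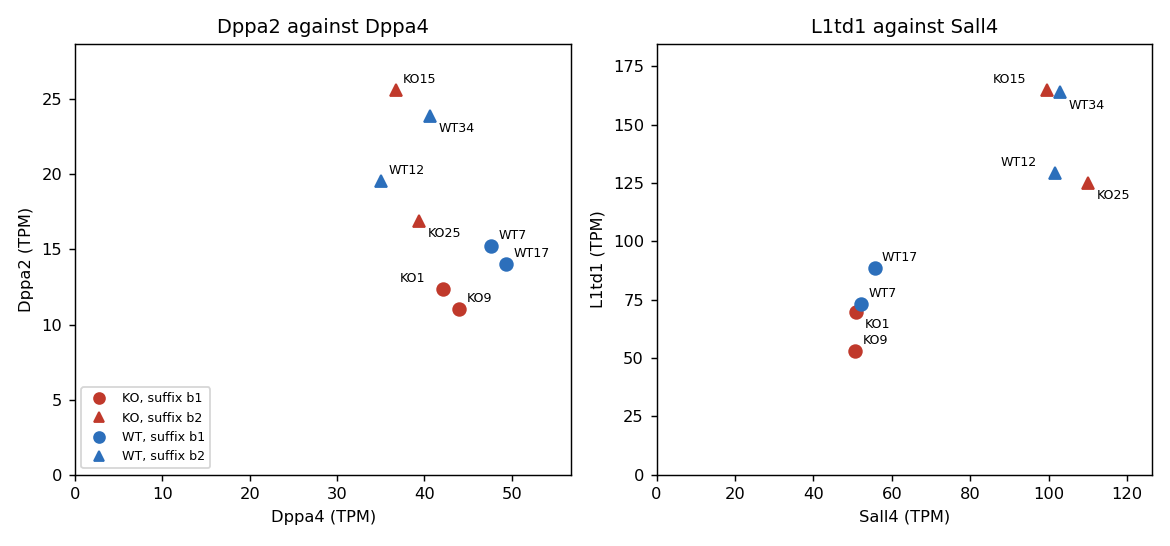
TPM of *Dppa2* against *Dppa4* (left) and of *L1td1* against *Sall4* (right), 1 point per line, with colour for genotype and shape for suffix as labelled. In both panels the 4 b2 lines lie apart from the 4 b1 lines, to the upper left for *Dppa2* and *Dppa4* and to the upper right for *L1td1* and *Sall4*, while the genotypes are mixed.

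The central pair and *Utf1* did not pass the test by suffix, though for *Sox2* and *Utf1* the call depended on the setting. *Pou5f1* had a log2 difference of b2 minus b1 of 0.05 (SE 0.07, 95% interval −0.10 to 0.19, adjusted p = 0.645, edgeR), and of its b1 lines WT7 alone, at 412 TPM, lay outside the b2 range of 436 to 512 TPM. *Sox2* had 0.30 (SE 0.18, −0.11 to 0.70, adjusted p = 0.269, edgeR), and its b2 lines ran from 25.2 to 48.2 TPM, on both sides of the b1 range of 26.9 to 33.1 TPM. Without WT12, the b2 line with the lowest *Sox2*, it was called as higher (log2 0.45, adjusted p = 0.0287, edgeR), as it was without a filter on low counts (adjusted p = 0.0101, edgeR). *Utf1* had −0.25 (SE 0.08, −0.44 to −0.06) with an adjusted p of 0.0556 in edgeR, and its ranges overlapped (152 to 178 TPM in b1, 127 to 172 TPM in b2). Without WT12 (log2 −0.19, adjusted p = 0.0490, edgeR) or WT34 (log2 −0.32, adjusted p = 0.0259) it was called as lower. *Utf1* was also called as lower by DESeq2 (adjusted p = 0.0304) and by edgeR with library size alone (adjusted p = 0.0110), without a filter (0.00145) and with at least 10 counts in every library (0.0411). With offsets for GC content and length its log2 difference was −0.12 (adjusted p = 0.419, edgeR), and with limma on log2(TPM + 1) it was −0.13 (adjusted p = 0.413). The ratio of *Sox2* to *Pou5f1* TPM overlapped between the suffixes, at 0.0659 ± 0.00981 in b1 and 0.0811 ± 0.0271 in b2 (SD, n = 4 each), whereas that of *Sall4* to *Pou5f1* was 0.106 to 0.127 in b1 and 0.198 to 0.252 in b2. Because *Sall4* did not overlap between the suffixes and *Pou5f1* varied little, the ratio of *Sall4* to *Pou5f1* adds no further result.

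**Figure D3:**
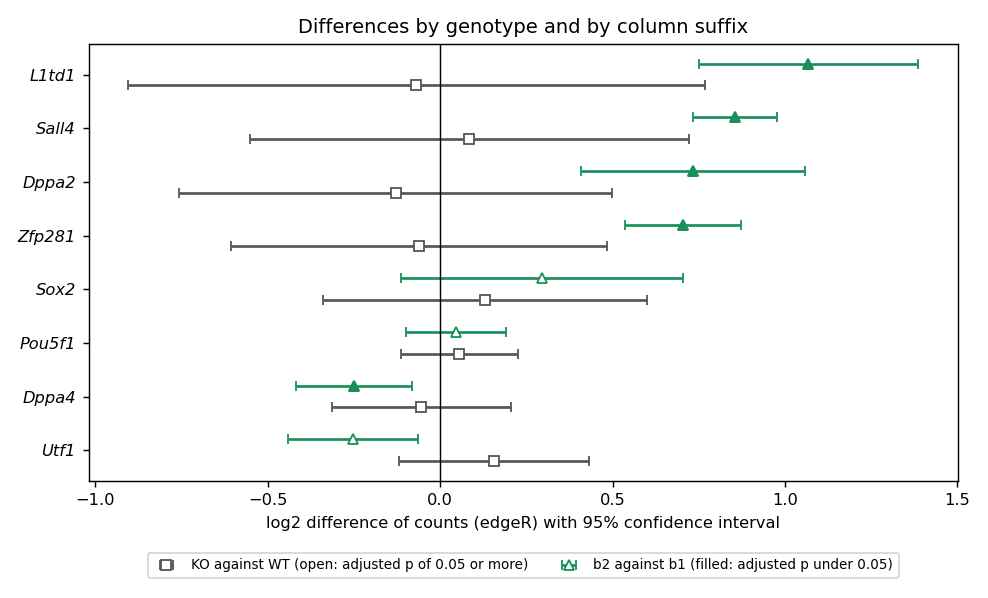
Log2 differences of counts with 95% confidence intervals from edgeR, KO minus WT as squares and b2 minus b1 as triangles, filled where adjusted p was under 0.05. All 8 KO intervals include 0, and the suffix intervals of *L1td1*, *Sall4*, *Dppa2* and *Zfp281* lie above 0 and that of *Dppa4* below it, as does that of *Utf1*, whose adjusted p was 0.0556.

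The differences by suffix had the same sign in both genotypes for 7 of the 8 genes. For *Sall4* the log2 CPM difference of b2 minus b1 was 0.91 between KO lines and 0.80 between WT lines, and for *Zfp281* it was 0.74 and 0.66. It was 1.24 and 0.87 for *L1td1*, 0.84 and 0.58 for *Dppa2*, and −0.19 and −0.32 for *Dppa4*. *Utf1* (−0.21 and −0.31) and *Sox2* (0.42 and 0.10) also kept their sign, and *Pou5f1* did not (−0.03 and 0.12). With 2 lines against 2, 4 of the 8 were called within KO lines, where 6.22% of all genes were, and 1, *Sall4*, within WT lines, where 1.76% of all genes were (edgeR). The difference between the genotypes in the suffix difference was tested by the interaction in edgeR, where 0 of 8 members were called (0 by DESeq2 too), as were 0 of 17272 genes (0%), and 0 members and 227 genes (1.31%) had an unadjusted p under 0.05. Its log2 values ran from −0.15 for *Pou5f1* (95% interval −0.46 to 0.15) to 0.36 for *L1td1* (−0.26 to 0.98), and the widest interval was that of *Sox2* (0.30, −0.55 to 1.14).

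The spread between lines, split into shares of the sum of squares of log2 CPM, ordered the genes from suffix-bound to line-bound. The suffix held 98.5% of it for *Sall4*, 93.1% for *Zfp281*, 85.7% for *L1td1*, 72.5% for *Dppa2*, 67.1% for *Dppa4* and 46.7% for *Utf1*, against a median of 30.6% over all genes tested. It held 17.8% for *Sox2* and 8.48% for *Pou5f1*. Genotype held at most 19.8% (*Utf1*), against a median of 7.64% over all genes tested. Lines within genotype and suffix held 70.7% of the squares for *Sox2* and 54.1%, of a small total, for *Pou5f1*, against a median of 39.4%. The product of genotype and suffix held 24.6% for *Pou5f1*, against a median of 2.81%. The SD of log2 CPM within genotype was 0.08 for *Pou5f1*, at percentile 4.76 of all genes, and 0.65 for *L1td1*, at percentile 87.7, with a median of 0.29 over all genes. Within genotype and suffix it was 0.04 for *Sall4*, at percentile 1.44, and 0.37 for *Sox2*, at percentile 73.6. *Sall4* was thus among the genes with the least spread within genotype and suffix, and *Pou5f1* among those with the least spread within genotype.

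**Figure D4:**
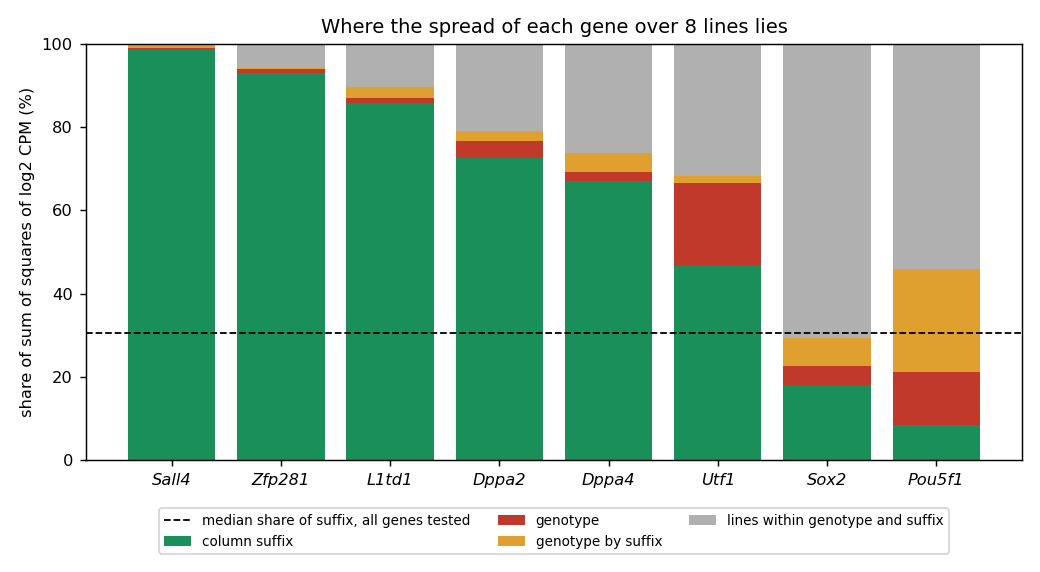
Shares (%) of the sum of squares of log2 CPM over the 8 lines that lie along the column suffix, genotype, their product and lines within genotype and suffix, for each of the 8 genes, with a dashed line at the median suffix share over all genes tested. The green suffix share falls from 98.5% in *Sall4* to 8.48% in *Pou5f1*, and 6 genes stand above the dashed line at 30.6%.

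Transcript length and GC content moved with the suffix over all genes, so they are given for the members. The median log2 difference of b2 minus b1 was −0.03 in the decile of genes with the shortest and 0.09 in the decile with the longest transcripts, and 0.11 in the decile with the lowest and −0.08 in that with the highest GC content. *Zfp281* (4937 bases, 43.1% GC), *Dppa2* (2447 bases, 43.6%), *L1td1* (2942 bases, 47.8%) and *Sall4* (5073 bases, 53.8%) have longer transcripts than *Utf1* (1227 bases, 63.5%), *Pou5f1* (1362 bases, 57.6%), *Dppa4* (1479 bases, 49.0%) and *Sox2* (2057 bases, 50.5%). The 4 members with the longest transcripts are thus those that were higher in b2. Over all genes the median log2 difference was −0.03 in the length decile of *Dppa2* and −0.001 in that of *L1td1*. It was 0.06 in the decile that holds *Sall4* and *Zfp281*. With offsets for GC content and length in edgeR 5 of 8 members were called, and the part of length and GC content in the differences was otherwise not tested. Of overlapping genes, which strand-specific counting should separate where they are antisense, *Gm19553* opposite *Pou5f1* averaged 6.63 counts against 13237, and *Sox2ot*, on the same strand as *Sox2* and spanning it, averaged 42.0 counts against 2688. *Gm14261* lies opposite *Sall4*.

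**Figure D5:**
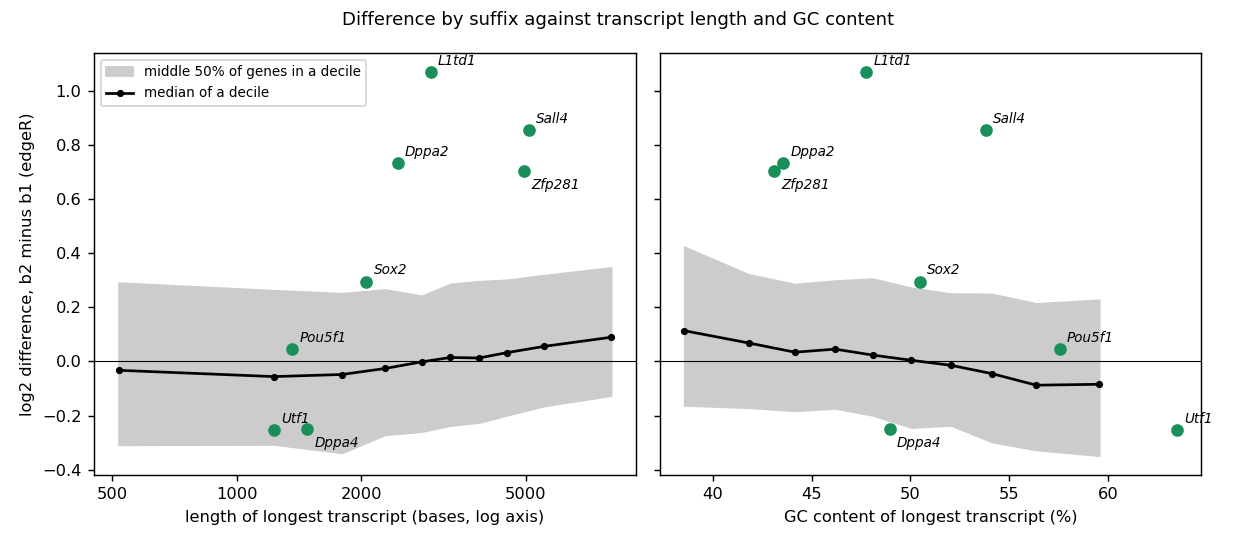
Log2 difference of b2 minus b1 (edgeR) against transcript length in bases (left, log axis) and GC content in % (right), with the median (line) and the middle 50% (grey) of genes in each decile and the 8 members as points. *L1td1*, *Sall4*, *Dppa2* and *Zfp281* lie above the grey band in both panels, and the median line runs from −0.03 to 0.09 with length and from 0.11 to −0.08 with GC content.

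Lists of relatives, targets, partners and state markers, without the members, were described by suffix (edgeR, adjusted p under 0.05). Their counts stand against 13.7% of all genes called as higher and 11.0% as lower. The lists share some genes, so these counts are not independent. *Pou3f1* and *Sox3*, both higher in b2, count among the relatives and among the formative and primed markers. Of 14 tested relatives of the members 6 were higher and 1, *Sox15*, was lower in b2 (median log2 0.52), among them *Sall1*, a *Sall4* paralog, with 14.9 to 18.9 TPM in b1 and 24.2 to 28.8 TPM in b2 (log2 0.64, SE 0.07, adjusted p = 4.47e-04). *Sall3*, another paralog, was low throughout, at 0.0448 to 0.115 TPM in b1 and 0.401 to 1.33 TPM in b2 (log2 3.29, SE 0.46, adjusted p = 0.00132). The SALL family members called were thus all higher in b2, *Sall2* included. Of 12 genes with known OCT4 and SOX2 enhancers, 4 were higher (*Fgf4*, *Lefty1*, *Tdgf1* and *Gdf3*) and 1 lower (*Tdh*), with a median of 0.21. *Tdgf1* overlapped in TPM, at 3.33 to 13.5 in b1 and 8.93 to 56.7 in b2. *Lefty1* was near 0 in b1 (0 to 0.185 TPM) and ran from 0.221 to 10.6 TPM in b2. *Gdf3*, a TGF-beta family ligand gene, had 8.25 to 11.1 TPM in b1 and 15.0 to 16.6 TPM in b2 (log2 0.68, SE 0.09, adjusted p = 0.00106).

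Of the 11 subunits of NuRD, the complex recruited by SALL4, only *Mta1* was called, as lower (log2 −0.50, SE 0.10, adjusted p = 0.00654, edgeR), and the median was 0.02. Of 12 genes known to depend on DPPA2 and DPPA4, 4 could be tested and *Zscan4f* and *Syce1* were higher, *Zscan4f* at 0 to 0.291 TPM in b1 and 0.154 to 4.07 TPM in b2 (log2 2.62, SE 0.80, adjusted p = 0.0395, edgeR). These ranges overlapped, and *Zscan4* copies share sequence that counting may divide. Of 24 general regulators of pluripotent cells 8 were higher and 1, *Zfp143*, was lower (median 0.15). Among those higher, *Mycn*, a MYC family factor gene, had the smallest p, at 14.9 to 20.4 TPM in b1 and 44.5 to 59.5 TPM in b2 (log2 1.5, SE 0.11, adjusted p = 7.45e-05, edgeR), and *Myc* a larger difference, at 2.68 to 3.18 TPM in b1 and 10.5 to 19.5 TPM in b2 (log2 2.67, SE 0.23). By state, 8 of 11 formative and primed markers were higher and none lower (median 0.64), with *Foxd3* at 0.435 to 0.926 TPM in b1 and 4.44 to 9.77 TPM in b2 (log2 3.13, SE 0.25, adjusted p = 1.23e-04). Of 11 naive markers *Klf2* alone was called, as higher. Between KO and WT no gene of these lists was called by edgeR.

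Likeness to each member was measured by Pearson's r of log2 CPM over the 8 libraries among 9485 genes averaging at least 10 CPM, as a description in which all points share the suffix and the depth of their library. The 2 most alike were *Topors* (0.998) and *Sprtn* (0.996) for *Zfp281*, *Sirt1* (0.996) and *Zzz3* (0.995) for *Sall4*, *Exo1* (0.994) and *Sar1a* (0.993) for *L1td1*, and *Mdn1* (0.991) and *Tpr* (0.991) for *Dppa2*. For these 4, between 139 (*Dppa2*) and 381 (*L1td1*) genes had an r above 0.95, so that no single pattern mate stood out. For *Dppa4* they were *Miip* (0.985) and *Cdk5rap3* (0.984), for *Utf1* *Fam129a* (0.990) and *Csad* (0.990), and for *Sox2* *Wee1* (0.989) and *Steap3* (0.979). For *Pou5f1* they were *Rwdd1* (0.968) and *Ssbp2* (0.951), the only 2 genes above 0.95.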

How the data were processed

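RNA-seq of EpiLCs was analysed in 4 Tet1 KO and 4 WT lines, 1 library each. From poly(A) RNA, the authors made stranded libraries, trimmed single-end reads with Trim Galore 0.6.4, estimated transcript abundance with Salmon 0.14.1 against GENCODE and collapsed it to genes by tximport under R 4.0.2 (versions per the submitters' processing notes, build mm10). The authors deposited estimated counts, not normalized, and TPM of the same quantification. No column of another series was present (0).

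Estimated counts were rounded (27.8% of values changed, by at most 0.5). edgeR 4.0.16 (R 4.3.3) kept 17272 genes (filterByExpr), scaled them by TMM and gave quasi-likelihood p-values, adjusted by Benjamini-Hochberg across the tested genes. KO was compared with WT without covariates, b2 with b1 with genotype in the model, and their interaction in another fit. SE is the log2 difference divided by the root of F. A call means an adjusted p under 0.05. Levels, ratios and shares of squares carry no test. 205 genes had no symbol and stayed in the fits. At these totals genes well under 1 TPM rest on few counts, and 53544 of 54281 gene IDs matched GENCODE M21. Lengths and GC content are of the longest annotated transcript.

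The members and lists were chosen with earlier results of these data known. Named genes were the 8 members, *Tet1*, up to 2 genes per list with the smallest p in either comparison and the 2 genes most alike each member. *Sall2*, *Sox15*, *Myc*, *Zfp143*, *Fgf4*, *Tdgf1*, *Tdh*, *Dnmt3a*, *Dnmt3b*, *Pou3f1* and *Sox3* were named after their values were seen. *Postn*, *S100a4* and genes overlapping a member stand outside the rule. Lists not described in the text gave, by suffix, 2 higher of 3 primitive streak (*Eomes*, *Foxa2*), 2 higher of 5 neural (*Sox1*, *Nes*), 1 higher of 6 primitive endoderm (*Foxa2*) and 2 higher of 7 trophoblast markers tested (*Gata3*, *Tfap2c*), and 1 lower of 6 feeder fibroblast markers (*Thy1*). Alternatives were other size factors (DESeq2 1.42.0), filters (none, or 10 counts in every library), DESeq2 and limma 3.58.1 on log2(TPM + 1) or log2(TPM + 0.1), an absolute log2 fold change above 1.5, lines left out, the suffix as a block, and each suffix or genotype alone. Offsets for GC content and length were added after seeing the data.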

Additional observations from a re-analysis of the deposited data

How the results depend on the processing

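Between KO and WT, 0 of 8 members were called under every alternative. The number of all genes called, 7, was 105 with DESeq2, 2, 3 and 2 with limma on log2(TPM + 1), log2(TPM + 0.1) and log2(TPM + 1) without a filter, 3 above an absolute log2 fold change of 1.5, 28 with the suffix as a block, 21 within b1 and 5 within b2, and 6 to 10 with 1 line left out. Small differences of KO minus WT changed sign: *Sall4* was −0.0264, −0.0270 and −0.0264 with the same 3 limma fits, *Sox2* −0.0331 within b1, and *Pou5f1* −0.0233, *Dppa4* 0.0108 and *L1td1* 0.0457 within b2. With 1 line left out, *Sox2* ran from −0.053 to 0.31, *Sall4* from −0.088 to 0.24, *Dppa2* from −0.43 to 0.056, *Dppa4* from −0.15 to 0.0103, *Zfp281* from −0.19 to 0.12 and *L1td1* from −0.40 to 0.20. Between b2 and b1, 5 of 8 members were called. That number was 7 without a filter, 6 with DESeq2, library size alone or the filter of 10 counts, 4 with limma on log2(TPM + 1) or log2(TPM + 0.1), 3 with limma without a filter, 4 within KO, 0 above an absolute log2 fold change of 1.5 and 1 within WT, and 4 to 7 with 1 line left out. The number of all genes called, 4253, was 1587, 1624 and 848 with the 3 limma fits, 365 above an absolute log2 fold change of 1.5, 1075 within KO and 304 within WT, and 2667 to 4806 with 1 line left out. *Sall4* stayed called in every fit at an adjusted p under 0.05, its log2 difference running from 0.78 to 0.98, though it lies below the fold threshold of 1.5. *Pou5f1* changed sign with library size alone (−0.0145) and within KO (−0.0313), and ran from −0.00292 to 0.0913 with 1 line left out. Fits within a genotype or suffix rest on 2 lines against 2, and limma tested other genes on another scale. The cause of the other changes was not tested. No paired analysis was possible because the lines carry no shared replicate numbers in their titles and the sources used here do not give littermate pairs. The depth, at most 23680839 counts, limits genes of low level such as *Sall3* and *Zscan4f*, whereas the 8 members were detected in every line.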
